A study of Mus musculus with 6 samples.

Results

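The genes described here are the transcription factor NRF2 (Nfe2l2), its cytoplasmic inhibitor KEAP1 (Keap1), the competing repressor BACH1 (Bach1) and 7 genes that NRF2 is known to switch on, namely Nqo1, Hmox1, Gclc, Gclm, Srxn1, Txnrd1 and Gsr. Members were chosen by name, as genes whose probe set carries that symbol and no other, with the brightest probe set standing for a gene. All 10 were found, each with 1 probe set, among 19938 genes with a single symbol. Signal was above a background guide on all 6 arrays for 9 of them, and Nqo1 was below it on every array. The guide was 19.4 intensity units (4.28 on the log2 scale), the 95th percentile of the means of 1027 olfactory receptor genes.

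In unstressed cells KEAP1 holds NRF2 in the cytoplasm and feeds it to a CUL3 ubiquitin ligase, so NRF2 is broken down as fast as it is made. Electrophiles and peroxides modify cysteines of KEAP1, NRF2 then accumulates, pairs with a small MAF protein in the nucleus and binds antioxidant response elements. BACH1 occupies the same elements as a repressor until heme removes it, and Hmox1 is its best known target. The pathway sets the capacity of hepatocytes for glutathione synthesis, thioredoxin reduction and quinone detoxification. Much of its control acts on the NRF2 protein, which these arrays do not measure.

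RNA came from AML-12, a mouse hepatocyte line derived from an animal carrying a human TGF-alpha transgene. Both groups were stably transduced with the retroviral hairpin vector pSUPER.retro.puro and selected with puromycin. The siMnSOD group (3 arrays) carried a hairpin against MnSOD, the mitochondrial superoxide dismutase encoded by Sod2, designed for a low degree of silencing, and the siScramble group (3 arrays) carried a hairpin that matches no gene. The series title speaks of knockout cells, but the sample labels describe a knockdown. The sample labels call the 3 arrays of each group biological replicates. The cells came from different frozen batches, and neither the number of transductions nor clonality is given in the sources used here. A p-value here therefore reflects array-to-array spread, part of which may be technical. In bulk RNA, fewer cells of a type and less RNA per cell cannot be told apart. The question was which antioxidant genes differ in cells with less MnSOD.

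Sod2 was lower on each siMnSOD array (52.3 to 121 intensity units) than on any siScramble array (248 to 293), with 32.4% of the control level retained and an adjusted p of 0.037 in limma, an intensity model fitted across all genes. Replicate 3 stood apart in both groups. Over all probe sets siScramble replicate 3 correlated with the other siScramble arrays at r = 0.976, while siScramble replicates 1 and 2 correlated at 0.993 and siMnSOD replicates 1 and 2 at 0.992. For siMnSOD replicate 3 and the others of its group r was 0.984 and 0.985. The replicate 3 arrays of the groups correlated at 0.979, and the replicate 1 arrays at 0.985. Over all probe sets the replicate 3 difference was thus of a size like the group difference. Array medians lay between 26.8 and 33.6 units. Of 12 measured hepatocyte markers, 5 were under the background guide in both groups, among them albumin (Alb), transthyretin (Ttr) and Cps1, whereas Hnf4a, Krt8, Krt18 and Apoe were above it. The summed signal of hepatocyte markers was 13747 to 15959 units in siMnSOD and 8693 to 13457 in siScramble. Most of this sum was Krt8 and Krt18, neither of which passed (adjusted p = 0.12 and 0.58 in limma). Both were lowest in siScramble replicate 3 (4376 and 3713 units). Among the hepatocyte markers Hnf4a was higher in siMnSOD (log2 fold change 1.09, adjusted p = 0.013 in limma). The summed signal of 4 biliary markers was 3894 to 4180 against 1904 to 3292. Of these, Krt7 (1.15) and Krt19 (0.70) did not pass, Sox9 was lower (−0.86, adjusted p = 0.027 in limma) and Epcam was under background. Sums over 7 macrophage and leukocyte markers (305 to 343 against 286 to 308), 5 endothelial markers (76.8 to 100.1 against 78.0 to 92.8) and 6 stellate cell and fibroblast markers (163 to 199 against 175 to 195) overlapped between groups. The part of these marker differences in the results that follow was not tested.

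Promoter sequences were searched for the letters of the antioxidant response element core close to the start site. RefSeq promoters of assembly GRCm38.p6 matched 7 members (Nfe2l2, Keap1, Bach1, Nqo1, Gclm, Srxn1 and Txnrd1, the last with 3 alternative starts). The 250 bases before each start were searched on both strands for the element's core in the forms TGACNNNGC and TGAGNNNGC, whose first 4 letters also begin the AP-1 motifs TGACTCA and TGAGTCA. A core was found in 4 of the 9 member promoters, and in 23.0% of 32851 promoters of all genes. The letters TGAGTCAGC, which hold a complete AP-1 motif, occurred in 0.347% of all promoters and in that of Srxn1. Keap1, Gclm and Srxn1 are shown because they are the called member, a target with higher signal and the target with a pair of cores. Sequences run 5′ to 3′ on the gene's strand, and capitals mark a core on either strand.
Keap1, chr9:21239333-21239582, minus strand: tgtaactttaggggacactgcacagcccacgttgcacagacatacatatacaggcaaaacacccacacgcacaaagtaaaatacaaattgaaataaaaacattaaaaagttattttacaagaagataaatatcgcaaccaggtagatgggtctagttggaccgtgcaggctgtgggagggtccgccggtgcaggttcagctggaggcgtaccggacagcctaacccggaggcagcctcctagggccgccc
Gclm, chr3:122245307-122245556, plus strand: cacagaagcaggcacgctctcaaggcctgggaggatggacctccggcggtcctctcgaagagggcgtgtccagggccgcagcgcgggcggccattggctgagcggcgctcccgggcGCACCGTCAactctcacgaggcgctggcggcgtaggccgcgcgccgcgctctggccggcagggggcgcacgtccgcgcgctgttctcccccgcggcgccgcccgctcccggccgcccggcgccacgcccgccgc
Srxn1, chr2:152105274-152105523, plus strand: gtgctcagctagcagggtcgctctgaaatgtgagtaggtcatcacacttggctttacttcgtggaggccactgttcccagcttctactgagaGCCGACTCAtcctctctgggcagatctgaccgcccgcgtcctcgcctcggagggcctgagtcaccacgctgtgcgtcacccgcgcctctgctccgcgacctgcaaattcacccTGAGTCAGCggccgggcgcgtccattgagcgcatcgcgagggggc

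The core of Gclm ended 126 bases before the start, and those of Srxn1 ended 150 and 37 bases before it. Nfe2l2 and 1 of the Txnrd1 starts each held 1 further core, shown with up to 20 bases on either side.
Nfe2l2, chr2:75704875-75704913, minus strand: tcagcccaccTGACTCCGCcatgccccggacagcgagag
Txnrd1, chr10:82859094-82859142, plus strand: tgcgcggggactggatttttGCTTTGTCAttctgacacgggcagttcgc
These matches are letters in a window and were not tested for binding. The windows of Keap1, Bach1, Nqo1 and the other Txnrd1 starts held neither form. Sequence further than 250 bases before a start was not searched, so an element there would be missed. Hmox1, Gclc and Gsr had no promoter in the set used and were not searched.

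Keap1 was the only one of the 10 genes that passed the test over all genes, and it was higher in the siMnSOD cells. The heme oxygenase gene Hmox1 had the largest difference, at 43.2% of the control level, and the glutathione reductase gene Gsr was 1.63-fold the control level, but both just missed the threshold with adjusted p-values of 0.051 and 0.052. Thus 1 member rose, where 2.17% of all genes did, and none fell, where 1.58% did (limma, Benjamini-Hochberg adjusted p under 0.05). At an unadjusted p under 0.05 there were 3 higher members (Keap1, Gsr and Gclm) and 1 lower (Hmox1), against 16.7% of all genes in either direction. The groups did not overlap for 3 members with higher siMnSOD values (11.1% of all genes) and for 2 with lower values (9.73%), 5 of 10 in either direction against 20.9% of all genes. Over the 9 members above background the median log2 fold change was 0.13, with 5 positive and 4 negative values. The median was 0.003 over the 12888 genes whose mean was above the guide, and 0.01 over all genes. The shares of all genes given here include genes under the guide. The members were chosen with earlier results of these data known.

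**Figure D1:**
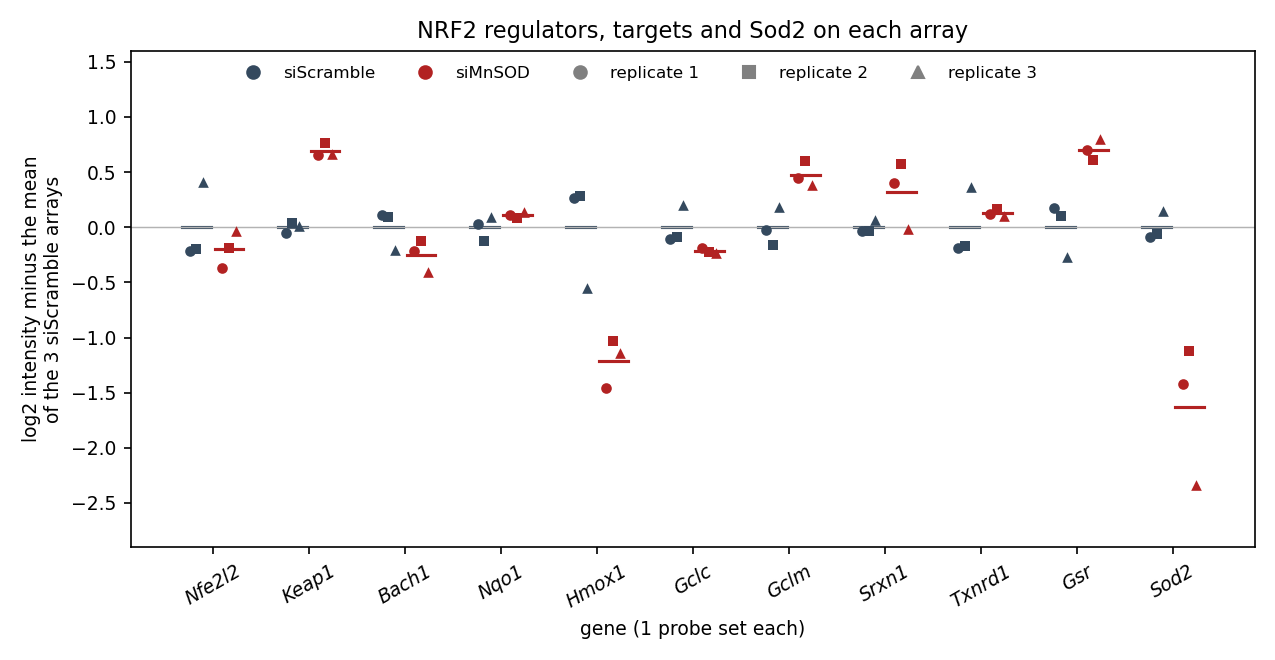
Log2 intensity of the 10 members and Sod2 on each array, minus the mean of the 3 siScramble arrays of that gene (y axis, log2 units). Marker shapes give the replicate number, colours the group and bars the group mean; Keap1, Gclm and Gsr lie higher and Hmox1, Gclc and Sod2 lower on every siMnSOD array than on any siScramble array, and Nqo1 is below background throughout.

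Among the regulators, Keap1 read 236, 255 and 238 intensity units on siMnSOD arrays 1, 2 and 3, and 145, 154 and 152 on the siScramble arrays. The means were 243 ± 10.7 and 150 ± 4.44 (SD, n = 3 each), and the groups did not overlap. KEAP1 is the substrate adaptor that presents NRF2 for degradation. Its log2 fold change was 0.69 (SE 0.10, adjusted p = 0.016 in limma), 1.62-fold with a 95% interval of 1.38 to 1.90. The exact two-sided permutation p was 0.1, the smallest that 3 against 3 arrays allow. Same-numbered arrays gave 162%, 166% and 157% of the control. The direction held under every alternative run, but the call was lost without siMnSOD replicate 1 (adjusted p = 0.069) or 2 (0.10) and without siScramble replicate 1 (0.091) or 2 (0.087), over a range of 0.00033 to 0.10 across 16 alternatives.

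Nfe2l2, the gene of NRF2 itself, read 590, 668 and 744 units in siMnSOD and 656, 666 and 1013 in siScramble. The siScramble replicate 3 array alone was high, and the other 5 overlapped. Its log2 fold change was −0.20 (SE 0.20, adjusted p = 0.86 in limma), with an interval of 0.632-fold to 1.20-fold. Without siScramble replicate 3 it was 0.0074 (adjusted p = 0.98), and −0.07 in replicates 1 and 2 of both groups. Bach1, the repressor, read 159, 169 and 140 units in siMnSOD and 200, 197 and 161 in siScramble. The lowest siScramble array lay within the siMnSOD range, although each siMnSOD array was below the siScramble array of its number. The log2 fold change of Bach1 was −0.25 (SE 0.13, adjusted p = 0.48 in limma), an interval of 0.674-fold to 1.05-fold.

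The balance of activator to inhibitor transcript was compared within arrays, as the log2 ratio of the probe signals relative to the siScramble mean. This comparison and 3 others of its kind were chosen after the values were seen. Nfe2l2 relative to Keap1 was −1.02, −0.96 and −0.70 in siMnSOD and −0.17, −0.23 and 0.40 in siScramble, without overlap. The mean difference was −0.89, which is 53.9% of the control ratio, with an exact two-sided permutation p of 0.1 (0.13 adjusted over the 4 ratios). Without siScramble replicate 3 it was −0.69, where Keap1 alone differed by 0.70 and Nfe2l2 by 0.0074. Nfe2l2 relative to Bach1 differed by 0.05 with overlapping groups (exact permutation p = 0.9), and by 0.36 without siScramble replicate 3.

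Hmox1, which opens the heme ring to biliverdin, iron and carbon monoxide, was the member with the widest spread over the arrays. It read 206, 277 and 257 units in siMnSOD and 680, 692 and 387 in siScramble. Every siMnSOD array was below every siScramble array, and siScramble replicate 3 lay between the rest of its group and the siMnSOD arrays. The means were 246 ± 36.6 and 586 ± 172 (SD, n = 3 each). The log2 fold change was −1.21 (SE 0.25, adjusted p = 0.051 in limma), or 2.32-fold lower with 95% bounds of 0.287-fold and 0.649-fold of the control. Retained levels were 30.3%, 40.0% and 66.3% in replicates 1, 2 and 3. Blocking on the replicate number gave an adjusted p of 0.045, in a fit where 4.02% of all genes rose and 3.12% fell. Without siScramble replicate 3 the log2 fold change was −1.49 (adjusted p = 0.0031). Without any other single array the adjusted p for Hmox1 in limma was 0.11 to 0.18. It was 0.12 after centring arrays on their medians and 0.084 with all probe sets tested.

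Nqo1 encodes the quinone reductase that serves as a standard readout of NRF2 activity in many tissues. Its probe set read 10.5, 10.3 and 10.8 units in siMnSOD and 9.96, 8.98 and 10.4 in siScramble. All of these values lay under the guide of 19.4 units, so no fold is given for Nqo1, and a difference between the groups was not measurable with this probe set.

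The 2 subunits of glutamate-cysteine ligase, the enzyme that limits glutathione synthesis, had differences of opposite sign, neither of which passed over all genes. The modifier subunit gene Gclm read 826, 920 and 788 units in siMnSOD and 597, 542 and 686 in siScramble. All siMnSOD values were above all siScramble values. Its log2 fold change was 0.48 (SE 0.13, unadjusted p = 0.0076, adjusted p = 0.11 in limma), 1.39-fold with an interval of 1.13 to 1.72. The catalytic subunit gene Gclc read 1158, 1132 and 1122 units in siMnSOD and 1228, 1239 and 1516 in siScramble. All siMnSOD values were below all siScramble values, by little in replicates 1 and 2 (94.3% and 91.4% of the control) and more in replicate 3 (74.0%). Its log2 fold change was −0.22 (SE 0.12, adjusted p = 0.49 in limma). Within arrays, Gclc relative to Gclm was −0.64, −0.83 and −0.62 in siMnSOD and −0.08, 0.07 and 0.02 in siScramble, again without overlap. The mean difference of −0.69 is 61.8% of the control ratio (SDs 0.12 and 0.08, n = 3 each). Its exact two-sided permutation p was 0.1, and 0.13 adjusted over the 4 ratios.

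Gsr, which returns oxidized glutathione to its reduced form with NADPH, read 2670, 2508 and 2855 units in siMnSOD and 1852, 1762 and 1361 in siScramble. The groups were separate, and replicate 3 gave both the highest siMnSOD and the lowest siScramble value. The means were 2678 ± 174 and 1658 ± 261 (SD, n = 3 each). The log2 fold change was 0.70 (SE 0.14, adjusted p = 0.052 in limma), with an interval of 1.28-fold to 2.06-fold. It was 0.57 (adjusted p = 0.023) without siScramble replicate 3, and same-numbered arrays gave 144%, 142% and 210% of the control. Without any other single array the adjusted p for Gsr in limma was 0.11 to 0.18. It was 0.090 after centring arrays on their medians and 0.086 with all probe sets tested. Gsr is also counted among peroxide defence enzymes.

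In the thioredoxin branch, Txnrd1 encodes the cytosolic reductase of thioredoxin, and read 658, 677 and 651 units in siMnSOD and 532, 537 and 778 in siScramble. The siMnSOD values lay together between siScramble replicates 1 and 2, which were lower, and siScramble replicate 3, which was higher. For Txnrd1 the log2 fold change was 0.13 (SE 0.17, adjusted p = 0.95 in limma), with an interval of 0.833-fold to 1.43-fold. Srxn1 encodes sulfiredoxin, which repairs overoxidized peroxiredoxins, and read 250, 281 and 187 units in siMnSOD and 183, 184 and 198 in siScramble. Replicates 1 and 2 were 136% and 152% of the control and replicate 3 was 94.3%. The fitted log2 fold change was 0.32 (SE 0.16, adjusted p = 0.44 in limma), an interval of 0.955-fold to 1.64-fold. Gsr relative to Txnrd1, which are related flavoprotein reductases, was 0.58, 0.45 and 0.69 in siMnSOD and 0.36, 0.27 and −0.63 in siScramble. The mean difference was 0.57 (exact permutation p = 0.1, 0.13 adjusted over the 4 ratios), and 0.26 without siScramble replicate 3, which alone was low.

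**Figure D2:**
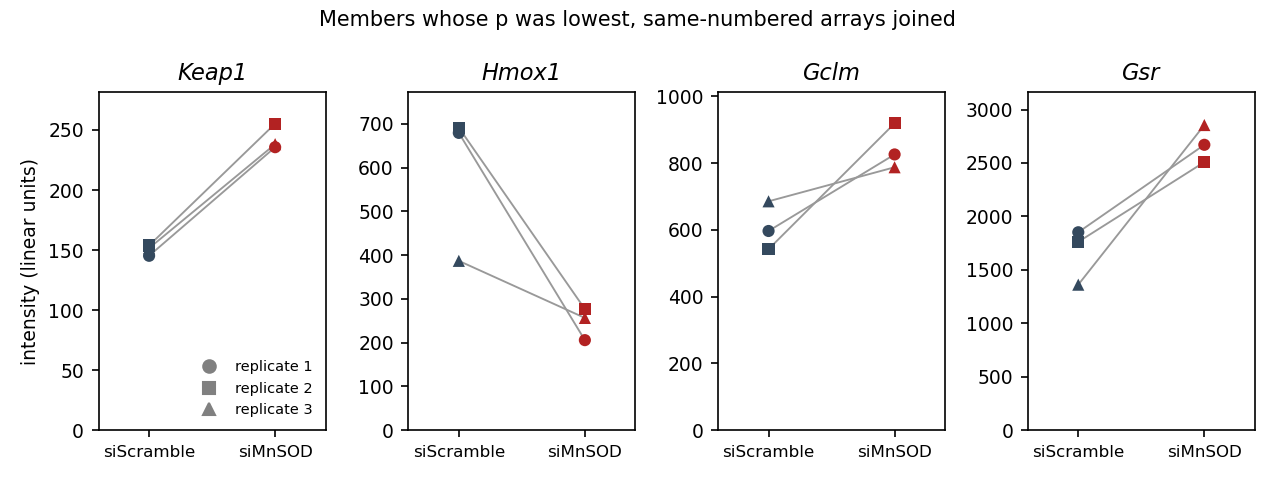
Intensity (linear units, y axis from 0) of Keap1, Hmox1, Gclm and Gsr, the members of lowest p, in the 3 siScramble and 3 siMnSOD arrays, with lines joining arrays of the same replicate number. Hmox1 goes from 680, 692 and 387 to 206, 277 and 257 units, and the siMnSOD end of each line is the higher one for the other genes.

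The number of members that passed changed with the arrays used. It was 0 without siMnSOD replicate 1 or 2 or siScramble replicate 1 or 2, and 1 (Keap1) without siMnSOD replicate 3. Without siScramble replicate 3, 3 members were higher (Keap1, Gclm and Gsr, where 5.61% of all genes were) and Hmox1 was lower (5.61%). In replicates 1 and 2 of both groups alone, a choice made after seeing the data, 5 of 10 members were higher where 11.8% of all genes were, namely Keap1, Gclm, Srxn1, Txnrd1 and Gsr. Hmox1 was lower, where 9.69% of all genes were. There the log2 fold changes were 0.71 for Keap1, 0.62 for Gclm, 0.52 for Srxn1, 0.32 for Txnrd1, 0.52 for Gsr and −1.52 for Hmox1, with adjusted p-values in limma of 0.0027 to 0.029. Nfe2l2 (−0.07), Bach1 (−0.28), Nqo1 and Gclc (−0.11) did not pass in these 4 arrays. Only Srxn1 and Txnrd1 had a same-numbered difference of opposite sign in replicate 3 among these 6 genes. Same-numbered arrays gave Sod2 at 39.8%, 47.8% and 17.8% of the control in replicates 1, 2 and 3. Using replicates 1 and 2 alone therefore leaves out the pair with the lowest retained Sod2.

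**Figure D3:**
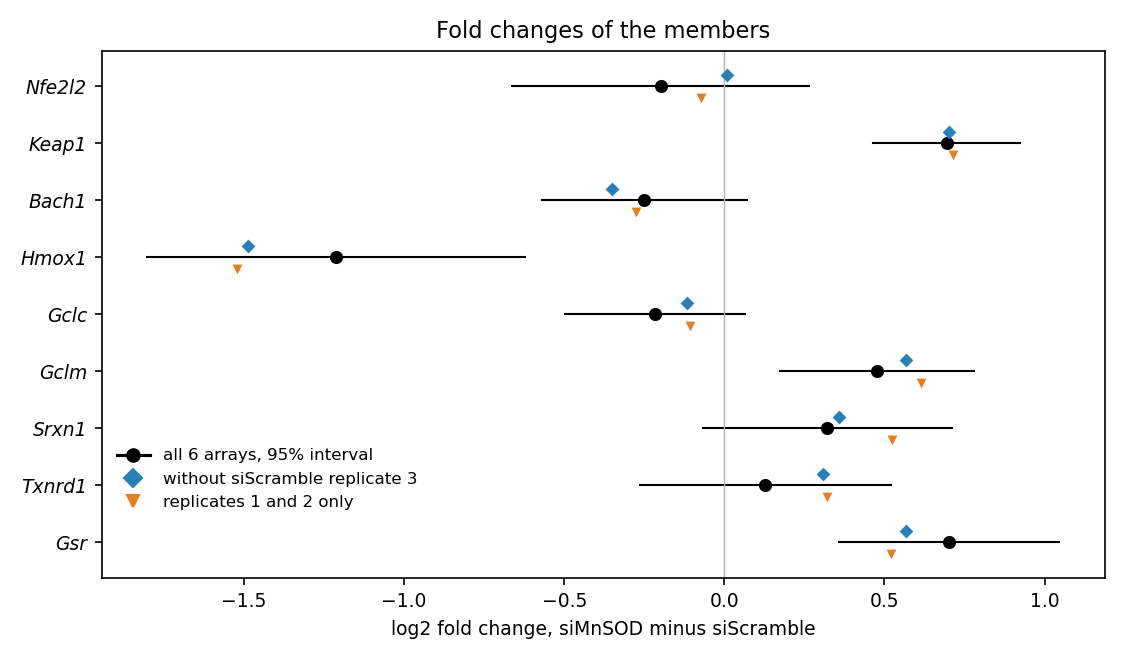
Log2 fold change of the 9 members above background, siMnSOD minus siScramble (x axis), with all 6 arrays and the 95% interval of the limma fit (black), without siScramble replicate 3 (blue) and in replicates 1 and 2 only (orange). Keap1 hardly moves between these sample sets, Hmox1 goes from −1.21 to −1.52 and Srxn1 from 0.32 to 0.52.

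Of the other genes of the pathway, 70 of 79 listed had a probe set with that single symbol, and 6 rose (8.57%, beside 2.17% of all genes) and 7 fell (10.0%, beside 1.58%) in limma at an adjusted p under 0.05. With the replicate block 10 rose (14.3%, beside 4.02%) and 4 fell (5.71%, beside 3.12%). In replicates 1 and 2 alone 33 were higher (47.1%, beside 11.8%) and 14 lower (20.0%, beside 9.69%). Their median log2 fold change was 0.10. No such probe set was found for Ggt1, Gsta1, Gsta2, Prdx5, Prdx6, Akr1b3, Ugt1a6a, Cyp2a5 and G6pdx. Of the 70 genes, 5 were under the background guide in both groups, whereas 12888 of all 19938 genes had a mean above it. The shares therefore compare sets of unlike signal. The lists were also drawn up with earlier results of these data known, so a larger share is not independent support. With rows under the guide left out, 6 of the pathway genes again rose and 7 fell, beside 479 and 365 of the 12888 genes. Among 13 partners and controllers of NRF2, 3 fell and none rose, with a median of −0.20. The counts were 3 higher and 4 lower in replicates 1 and 2, and 1 of each after centring arrays on their medians. Sqstm1, whose product p62 binds KEAP1 and carries it to autophagy, read 2414, 2531 and 2069 units in siMnSOD and 5383, 5137 and 4425 in siScramble. That is 2.13-fold lower, with a log2 fold change of −1.09 (SE 0.13, adjusted p = 0.0096). The small MAF gene Maff, a dimerization partner of NRF2, read 68.0, 86.0 and 106 units against 351, 373 and 163, with a log2 fold change of −1.70 (SE 0.34, adjusted p = 0.047, or 0.059 with the replicate block). Nfe2l1, the NRF2 relative that controls proteasome genes, fell by 0.86 on the log2 scale (SE 0.14, adjusted p = 0.028). With the replicate block Maff lost its call and 1 member of this list was higher, Park7 (0.54, adjusted p = 0.033), which was named after its values were seen.

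Among 20 measured genes of glutathione synthesis and use, 3 fell (15.0%, beside 1.58% of all genes) and none rose (median −0.08). In replicates 1 and 2 alone 9 were higher (45.0%, beside 11.8% of all genes) and 5 lower (25.0%, beside 9.69%). The cystine importer gene Slc7a11, which supplies the cysteine that Gclc uses, was 3.33-fold lower (log2 fold change −1.74, SE 0.25, adjusted p = 0.019). Chac1, which encodes a glutathione-degrading enzyme, had −1.46 (SE 0.25, adjusted p = 0.031, or 0.053 with the replicate block). The export pump gene Abcc4 had −1.20 (SE 0.10, adjusted p = 0.0036) and passed whichever array was left out. With the block 2 members were also higher, Gss (0.47, adjusted p = 0.048) and Mgst3 (1.07, adjusted p = 0.023), both named after their values were seen. In the thioredoxin and peroxiredoxin list, of 11 measured genes only Sesn2, a stress-induced regulator of growth signalling, fell (−1.17, SE 0.21, adjusted p = 0.033, or 0.050 with the block, where it no longer passed). Sesn2 alone is 9.09% of the list, where 1.58% of all genes fell. The median there was 0.29, beside 0.01 over all genes, and 7 of 11 values were positive. This list had no lower gene after centring arrays on their medians or with all probe sets tested. Without siScramble replicate 3 it had 3 higher and 2 lower (27.3% and 18.2%, beside 5.61% of all genes each way). In replicates 1 and 2 it had 5 higher and 3 lower (45.5% and 27.3%, beside 11.8% and 9.69% of all genes).

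In the main fit, genes of NADPH supply, heme and aldehyde metabolism made up all of the rises. With the replicate block Park7, Gss and Mgst3 were higher too. In replicates 1 and 2 the partner, glutathione and thioredoxin lists had 3, 9 and 5 higher genes. Of 6 listed NADPH genes 5 were measured, and G6pdx had no probe set with that single symbol. Among the 5, 2 rose (40.0%, beside 2.17% of all genes), with a median of 0.64. The risen genes were the cytosolic dehydrogenase genes Pgd (2.53-fold, SE 0.11 on the log2 scale, adjusted p = 0.0036 in limma) and Idh1 (2.36-fold, SE 0.13, adjusted p = 0.0067). With the replicate block Tkt (0.64, adjusted p = 0.022) also passed, and was named after its values were seen. Of 11 heme and iron genes 3 rose (27.3%, beside 2.17% of all genes) and none fell. In this list 10 of 11 values were positive and the median was 0.35, beside 0.01 over all genes. Blvra, whose product reduces the biliverdin made by heme oxygenase, read 523, 514 and 511 units in siMnSOD and 211, 204 and 271 in siScramble, 2.27-fold higher (log2 fold change 1.19, SE 0.13, adjusted p = 0.0086). The heme scavenger gene Hpx had 1.34 (SE 0.26, adjusted p = 0.043) and the porphyrin transporter gene Abcb6 had 0.74 (SE 0.11, adjusted p = 0.021). Thus Hmox1 and Blvra, successive steps of heme breakdown, had differences of opposite sign, of which that of Blvra passed. Of 10 quinone, aldehyde and drug metabolism genes only Aldh1a1, a retinaldehyde dehydrogenase gene, rose (1.39, SE 0.17, adjusted p = 0.011), and none fell (median 0.09). In 3 of these 10 genes both group means were under the background guide.

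Leaving out a single array among siMnSOD replicates 1 and 2 and siScramble replicates 1 and 2 ended the calls of Sqstm1 (highest adjusted p 0.063), Nfe2l1 (0.15), Slc7a11 (0.086), Chac1 (0.16), Abcb6 (0.11) and Hpx (0.18). The same held for Maff (0.20) and Sesn2 (0.16), which siMnSOD replicate 3 ended too. Blvra lost its call without siMnSOD replicate 1 or 2 (highest 0.065), Aldh1a1 without either of these or siScramble replicate 1 (0.065) and Idh1 without siMnSOD replicate 2 (0.056), whereas Pgd and Abcc4 passed in each case. After centring arrays on their medians Maff (adjusted p = 0.083), Nfe2l1 (0.053), Chac1 (0.051), Sesn2 (0.075) and Hpx (0.070) did not pass, nor did they with all probe sets tested (0.051 to 0.078).

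**Figure D4:**
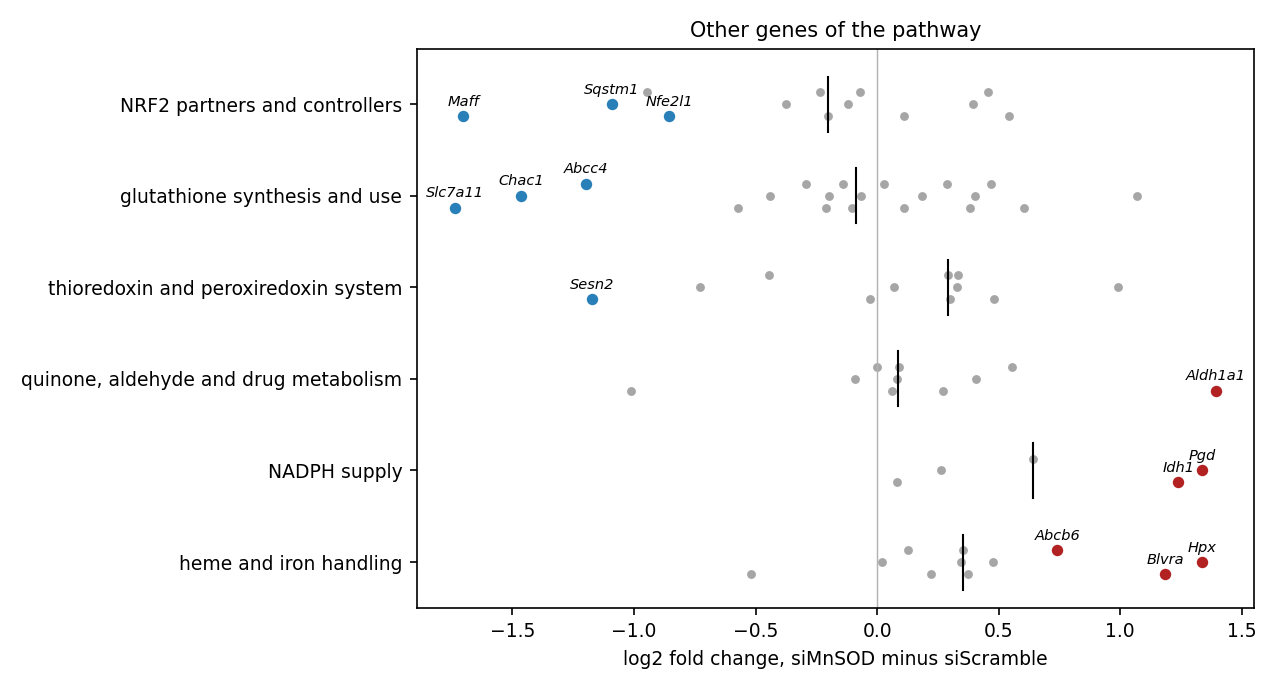
Log2 fold change, siMnSOD minus siScramble (x axis), of 70 further pathway genes in 6 lists (rows), with genes at an adjusted p under 0.05 in limma coloured and named, others grey, and the list median as a black line. Called genes lie on the lower side in the upper 3 lists, from Maff to Sesn2, and on the higher side in the lower 3, from Aldh1a1 to Hpx.

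Genes with the most similar profile were sought for the 3 members of widest range, Hmox1, Gsr and Keap1. Likeness was the root mean square difference of log2 values over the 6 arrays after centring each gene on its mean, among 12887 genes above the background guide. Hmox1 lay nearest to Prag1 (0.088), Myc (0.093) and Lratd2 (0.10), and its nearest member, Bach1, was at 0.53. Gsr lay nearest to Umps (0.051), Eps8 (0.061) and Sae1 (0.073), and Keap1 to Mmab (0.040), Ildr2 (0.050) and Nup93 (0.051). The nearest member to Gsr was Keap1 (0.17), and to Keap1 it was Gclm (0.16). These distances describe 6 arrays that share a group difference and a replicate 3 difference.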

How the data were processed

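RNA of 6 samples was hybridized to Affymetrix Mouse Gene 1.0 ST arrays, 1 per sample. The authors deposited normalized intensity values, on a linear scale, for 35557 probe sets. The authors used RMA per the submitters' processing notes, whereas the series' design text names MAS5; no source used here names a version, a background correction or an annotation. Of the probe sets, 21789 had a single symbol in a platform table, 1621 had several and 12147 had none. Entrez identifiers gave current names (21698 matched a RefSeq table of GRCm38.p6). The brightest probe set stood for a gene. Rows with several symbols were tested but not named (21559 rows tested). Low values were not filtered out. Precision is limited by the number of arrays.

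The test was limma 3.58.1 (R 4.3.3; lmFit and eBayes) on log2 intensity with group as the only term, with Benjamini-Hochberg adjustment over all rows, a threshold of 0.05 and 95% intervals. Permutation tests used scipy 1.17.1. The limma fit was tried on simulated data with independent noise on each array. The simulation held no replicate 3 difference, so it cannot show how such a difference affects the calls. Fold changes are siMnSOD minus siScramble. The members, lists and tests were chosen with earlier results of these data known. The text names Sod2, all members, the called genes of each pathway list (the lowest p where none was called) and the 3 nearest profiles of the 3 members of widest range, unless stated otherwise.

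Deviations of same-numbered arrays from their group means correlated at 0.30, 0.29 and 0.56. The numbers were taken as pairs for comparing same-numbered arrays and for a block, but not in the main fit. The labels call the arrays biological replicates and do not say what equal numbers share. Replicate 1 of siMnSOD correlated more with siScramble replicate 2 (0.47), and replicate 2 more with siScramble replicate 1 (0.41). A fit with the replicate number as a block was an alternative. Others changed the scaling, offset, filter, probe set summary, prior variance, array weights or arrays used.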

Additional observations from a re-analysis of the deposited data

How the results depend on the processing

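Over 16 alternatives and 10 members, 133 of 159 values kept the direction and the side of the threshold, 21 passed newly, 4 (all Keap1) no longer passed and 1 changed sign. Nqo1 had no value with the filter on low values. The sign change was Nfe2l2 without siScramble replicate 3 (0.0074). Leaving out single arrays gave 0.01 to −0.31 for Nfe2l2.

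The count of members higher was 2 with 16 units added before log2, with the filter and with the prior variance as a trend, in each case Keap1 and Gsr, and 5 with array weights or in replicates 1 and 2 alone. It ranged from 0 to 3 without single arrays. The count of members lower was 1 (Hmox1) with the replicate block, quantile normalization, the filter, the trend and replicates 1 and 2, and 2 (Hmox1 and Bach1) with array weights. It ranged from 0 to 1 without single arrays. Of the 70 other pathway genes, 32 were higher and 15 lower with array weights, beside 2486 and 2188 of all 19938 genes. After centring 6 were higher and 3 lower, beside 365 and 140. With all probe sets tested 5 were higher and 3 lower, beside 278 and 154. Counts over all genes in the other settings, for comparison with those of the members, are given below.

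Over all genes 432 were higher and 316 lower. The counts were 560 and 422 with 16 units added before log2, 479 and 365 with the filter, 377 and 253 with the trend, 517 and 392 with quantile normalization, 801 and 623 with the replicate block, 2486 and 2188 with array weights, which were lowest for both replicate 3 arrays (0.25 and 0.16), 278 and 154 with all probe sets tested, and 2343 and 1932 in replicates 1 and 2. After centring arrays on their medians 365 were higher and 140 lower. They ranged from 52 to 1119 higher and from 25 to 1119 lower without single arrays. Centring used array medians over all 35557 probe sets, of which 12147 had no symbol. It moved the median of all genes from 0.01 to 0.09, and that of the 9 members above background from 0.13 to 0.21. Sod2 kept its direction throughout, with −1.54 (adjusted p = 0.069) after centring, −1.63 (0.063) with all probe sets tested and −1.88 to −1.27 without single arrays, where it did not pass without siMnSOD replicate 1 (0.10) or 2 (0.072) or siScramble replicate 1 (0.12) or 2 (0.13). The replicate block changed no other member's call than that of Hmox1. Testing all probe sets raises the number of tests, and leaving out arrays lowers the number of samples; otherwise the cause of these changes was not tested.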
